A study of Arabidopsis thaliana with 6 samples.

Results

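A group of 10 class III peroxidase genes of Arabidopsis thaliana were compared between wild-type seedlings and seedlings of the cbe1 mutant. They are PRX33, PRX34, PRX37, PRX38, PRX52, PRX57, PRX62, PRX64, PRX71 and PRX72, 10 of the 73 genes of the family and 10 of the 33557 genes in the deposited table. The members were picked by gene identifier with the FPKM values and fold changes of this same contrast known, so those values are given as a description. The other 63 genes of the family, those left after that choice, are described beside them. The wild type was the accession Col0 and the mutant carries cbe1, which affects the gene for Conserved Binding of eIF4E 1, named for its contact with eIF4E, the initiation factor that holds the mRNA cap. The sources used here give neither the kind of mutation nor the number of seedlings per library. Both genotypes were grown for 7 days on MS plates with 1% sucrose, with 16 hours of light and 8 hours of dark, and seedling tissue was frozen and homogenized. There were 3 libraries of poly(A) RNA per genotype, which the labels call biological replicates. The question of the comparison is which transcripts differ in mutant seedlings.

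Class III peroxidases are haem enzymes that plants release into the cell wall and the apoplast, the space outside the plasma membrane. With hydrogen peroxide they couple phenolic compounds, which joins monolignols into lignin and links wall proteins and polysaccharides, and in another cycle they form reactive oxygen species. In this way members of the family can stiffen a wall or loosen it. In Arabidopsis, members are known for lignin in stems and in the Casparian strip of the root endodermis, for root and root hair growth, and for the oxidative burst after attack by microbes.

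The level of a transcript is given in FPKM, fragments scaled to transcript length and to sequencing depth. The table holds 1 FPKM value per gene and genotype, combined by the authors over the 3 libraries, so no value per library and no spread between replicates can be shown, and the depth is unknown. The error of a log2 fold change (cbe1 over Col0) is the standard error implied by the authors' test statistic, and the 95% intervals are a normal approximation from it. A gene was called when the q-value in the authors' deposited table was below 0.05. Calls made up 4.94% of the 22303 tested genes, with 3.31% higher in the mutant and 1.63% lower. At an unadjusted p below 0.05 the share was 16.7%, made up of 12.5% higher and 4.2% lower. The median tested gene with a mean of at least 1 FPKM had a log2 fold change of 0.17. When the authors' statistic was recentred on that gene, the share called was 4.31%, made up of 1.33% higher and 2.99% lower. The CBE1 transcript (AT4G01290) fell from 13.8 to 4.48 FPKM, or −1.62 in log2 (standard error 0.20, q = 1.41e-12 in the authors' deposited table). Seedling tissue was represented by RBCS3B, a small subunit of Rubisco in green tissue, at 5964 FPKM in Col0, and by PYK10, a root β-glucosidase, at 2440 FPKM.

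Among the 10 peroxidases, PRX37 and PRX72 fell and PRX71 rose, 2 lower and 1 higher, where 1.63% and 3.31% of all tested genes were called in these directions. Nothing is read from that difference, since the genes were picked on this contrast. All 10 were tested by the authors, and 8 had a mean of at least 1 FPKM. The lowest q-value of the other 7 was that of PRX38, 0.190. PRX37 had the most negative log2 fold change of the 10, and PRX71 the most positive. Summed over the 10 genes, the level was 200.8 FPKM in the wild type against 229.6 in the mutant, and the median log2 fold change was −0.074, against 0.18 for all tested genes. The same 3 genes were called with the recentred statistic, where 4.31% of all tested genes were. With FPKM rescaled to TPM, which adds 1.57 to every log2 fold change, PRX37 was at −0.20, PRX71 at 2.70 and PRX72 at 0.97. The direction of PRX72 thus turns on that scale. The gene AT2G01021 alone held 72.2% of the summed FPKM in Col0 and 38.8% in cbe1. The added 1.57 therefore rests largely on this 1 gene, and directions with it left out of the sums were not computed. Of the 363 genes called lower as deposited, 75 stayed below 0 on the TPM scale.

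**Figure D1:**
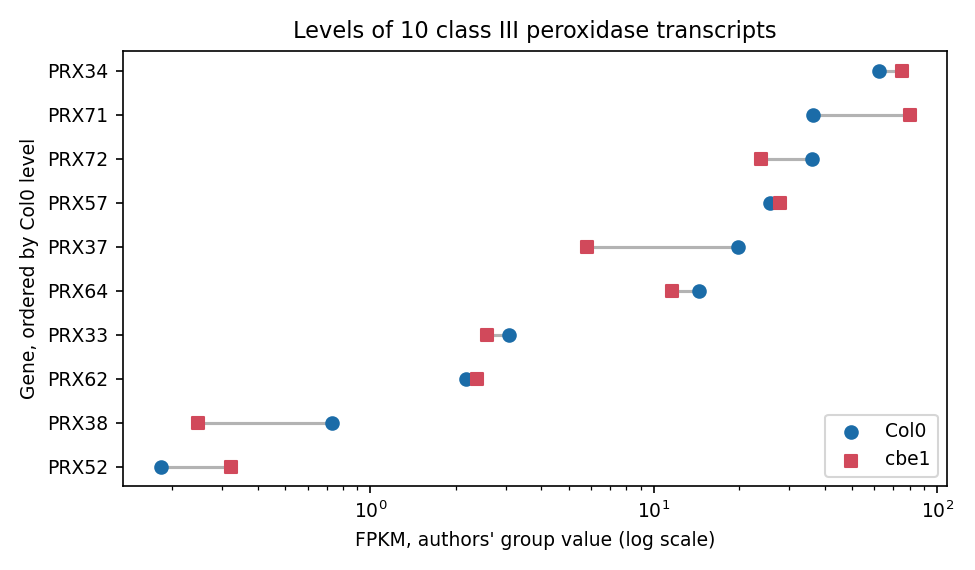
Level of each of the 10 peroxidase transcripts in FPKM on a log axis, circles for Col0 and squares for cbe1, ordered by the Col0 level; each symbol is the authors' value for 1 genotype, with no spread. PRX37 moved from 19.8 to 5.82 FPKM and PRX71 from 36.4 to 80.0 FPKM, while PRX57 and PRX62 had nearly the same level in both genotypes.

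**Figure D2:**
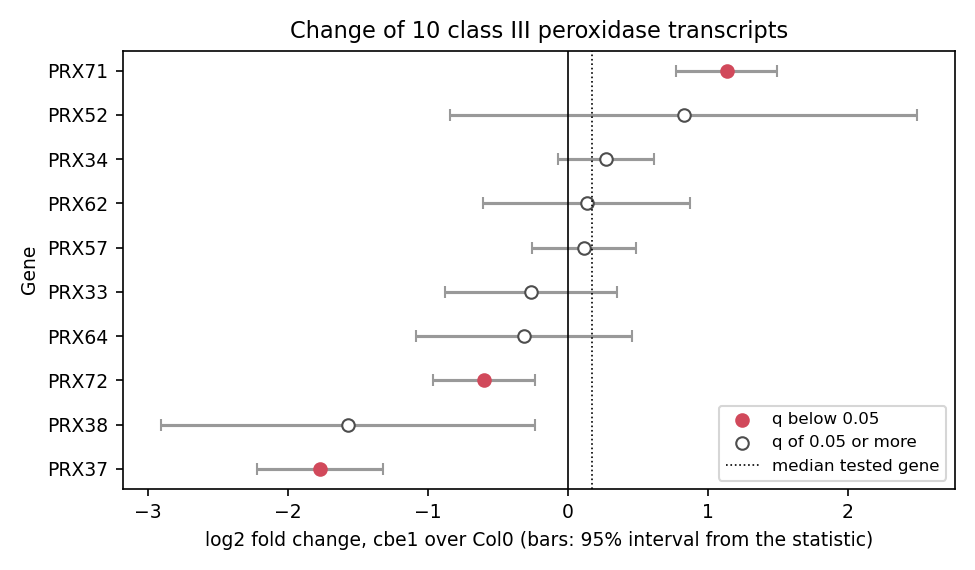
Log2 fold change of the 10 transcripts, cbe1 over Col0; bars are 95% intervals from the authors' statistic, filled points have q below 0.05, and the dotted line marks the median tested gene at 0.17. The intervals of PRX37, PRX72 and PRX38 lie below 0, that of PRX71 lies above 0, and the scarce PRX52 has a wide interval.

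PRX37 (AT4G08770, chromosome 4, 5598115 to 5600312, TAIR10) is an apoplastic peroxidase of vascular bundles, and plants that overexpress it are dwarf. Its level dropped 3.41-fold: Col0 seedlings had 19.8 FPKM, cbe1 seedlings 5.82. The log2 fold change was −1.77 with a standard error of 0.23 (95% interval −2.22 to −1.32, q = 1.10e-11 in the authors' deposited table). Within the family it went from rank 18 to rank 33 by level. PRX38 (AT4G08780, 5604153 to 5608202) lies beside PRX37 on the opposite strand, with 3840 bases between the 2 loci. This gene was scarce, with 0.730 FPKM in the wild type against 0.246 in the mutant. The log2 difference, −1.57 with a standard error of 0.68 (95% interval −2.91 to −0.23), did not pass the threshold (q = 0.190 in the authors' deposited table). With a pseudocount of 1 FPKM it was −0.47. PRX37 was 27.2 times as abundant as PRX38 in Col0 and 23.6 times in cbe1.

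PRX37 and PRX38 encode near-copies, and the first 120 coding bases of both are shown because they bear on how reads could be assigned. The bases that differ between the genes, 5 of 120, are in capitals (TAIR10.1 genome of RefSeq; chr4:5600143-5600262, minus strand, and chr4:5604153-5604272, plus strand).
PRX37: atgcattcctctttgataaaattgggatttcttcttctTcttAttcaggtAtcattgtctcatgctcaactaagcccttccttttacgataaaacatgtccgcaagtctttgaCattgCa
PRX38: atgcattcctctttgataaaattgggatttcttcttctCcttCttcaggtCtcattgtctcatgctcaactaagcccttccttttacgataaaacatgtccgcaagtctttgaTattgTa
Over the whole coding sequence 93.8% of aligned bases were identical, and the longest identical run had 101 bases. Of all stretches of 50 bases in the PRX37 transcript, 7.78% also occur in the PRX38 transcript, and 9.31% the other way. Reads of up to 50 bases that lie within these stretches cannot be placed by sequence alone. Longer or paired reads could reach bases that differ, and the read length was not used here. The part of PRX37 reads in the low PRX38 value was not tested. Added together, the pair had 20.6 FPKM in wild-type and 6.06 in mutant seedlings.

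PRX71 (AT5G64120, chromosome 5, 25659306 to 25661002) strengthens cell walls and limits cell growth, and is known to be induced when wall integrity is disturbed. It rose 2.20-fold, from 36.4 to 80.0 FPKM. The log2 fold change was 1.14 with a standard error of 0.18 (95% interval 0.78 to 1.49, q = 1.69e-07 in the authors' deposited table). Relative to the median gene it was 0.96. By level, PRX71 went from rank 10 to rank 6 in the family, and its share of all peroxidase FPKM went from 1.30% to 3.61%. No stretch of 50 bases in its transcript occurs in another peroxidase transcript.

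PRX71 is the last of 3 peroxidase genes in a row on chromosome 5. PRX70 (AT5G64110), the next gene, went uncalled with 1.42 FPKM in the wild type against 2.79 in the mutant (log2 0.97, standard error 0.38, q = 0.128 in the authors' deposited table). PRX69 (AT5G64100), which acts in root hair growth, had 63.9 and 58.6 FPKM and was not called (log2 −0.12, 95% interval −0.48 to 0.23). In Col0, PRX69 was the more abundant of PRX69 and PRX71, and in cbe1 PRX71 was.

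The closest relative of PRX71 by coding sequence is PRX62 (AT5G39580, chromosome 5, 15847078 to 15849108), with 75.5% identical bases. PRX62 acts with PRX69 in root hair growth at low temperature. Levels of 2.17 FPKM in Col0 against 2.38 in cbe1 (log2 0.13, 95% interval −0.61 to 0.87) left it uncalled. Its sign depends on the centring, since recentring gave −0.040.

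PRX72 (AT5G66390, chromosome 5, 26515916 to 26517391) contributes to lignin in stems and in the Casparian strip. It fell 1.51-fold, from 36.2 to 23.9 FPKM. The log2 fold change was −0.60 with a standard error of 0.19 (95% interval −0.97 to −0.23, q = 0.0330 in the authors' deposited table). At a q-value threshold of 0.01 it was no longer called. On the TPM scale, which adds 1.57 to every gene, its log2 fold change was 0.97, the other direction. That constant rests largely on AT2G01021, as given above. Relative to the median gene PRX72 was at −0.77 on either scale.

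PRX64 (AT5G42180, chromosome 5, 16852630 to 16855645) sits at the Casparian strip domain of the endodermis. Wild-type seedlings had 14.4 FPKM and mutant seedlings 11.6, a difference that was not called (log2 −0.31, standard error 0.39, q = 0.769 in the authors' deposited table). Its locus in the table also covers the gene AT5G42190, the only such overlap among the 10 members. PRX52 (AT5G05340, chromosome 5, 1578951 to 1580875), a peroxidase of stem lignin, was the scarcest of the 10, at 0.182 and 0.323 FPKM. Its interval, −0.84 to 2.50 on the log2 scale, covers a fall as well as a large rise, so no difference was detectable at this level. With a pseudocount of 1 FPKM its log2 fold change went from 0.83 to 0.16.

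A set of 5 family genes, PRX3, PRX9, PRX39, PRX64 and PRX72, is known to be needed together for lignin of the Casparian strip; this set was put together after its values were seen. PRX3 fell from 54.5 to 30.3 FPKM (log2 −0.85), PRX39 from 30.2 to 15.01 FPKM (log2 −1.01), and PRX72 as given above. PRX9 had 3.42 and 2.70 FPKM (log2 −0.34) and, like PRX64, was not called. The list of other Casparian strip genes had 0 calls among 9 tested members by the authors' Cuffdiff test. There were 2 members, CASP1 and RBOHF, with an unadjusted p below 0.05. Both were higher, where 12.5% of all tested genes were higher at that p. The median log2 fold change was 0.48, against 0.18 for all tested genes. CASP1, a scaffold protein of the strip, had 19.4 and 29.8 FPKM (q = 0.116 in the authors' deposited table), on a locus that also covers another gene. SGN1, a kinase that helps to place the strip, had 10.2 and 9.74 FPKM. The dirigent-like protein gene ESB1, whose locus also covers another gene, was not tested, at 0.0718 and 0.0703 FPKM.

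PRX33 (AT3G49110, chromosome 3, 18200664 to 18203142) and PRX34 (AT3G49120, 18207651 to 18210132) produce reactive oxygen species in the oxidative burst after elicitors of microbes, and PRX34 also acts in root elongation. PRX34 was the most abundant of the 10 in Col0, with 62.1 FPKM there against 74.96 in the mutant. It was not called (log2 0.27, 95% interval −0.072 to 0.62). PRX33 had 3.09 and 2.58 FPKM (log2 −0.26, 95% interval −0.88 to 0.35). PRX34 was 20.1 times as abundant as PRX33 in Col0 and 29.1 times in cbe1. The coding sequences share 90.4% of aligned bases, with an identical run of 111 bases, and 6.53% of the 50-base stretches of PRX33 occur in PRX34. PRX32, the next closest relative of PRX34 at 84.2%, shares no such stretch with any family member and was the second most abundant family gene.

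PRX57 (AT5G17820, chromosome 5, 5887906 to 5890193) is known for an effect on cuticle permeability when overexpressed, and it is a target of UPB1, a bHLH repressor of peroxidases in the root tip. Its levels, 25.7 FPKM in the wild type against 27.9 in the mutant, were not called different (log2 0.12, 95% interval −0.26 to 0.49). Recentring turned this to −0.059. UPB1 itself had 2.84 and 3.51 FPKM and MYB36, a regulator of endodermal genes, had 1.56 and 2.26 FPKM; 0 of these 2 regulators were called by the authors' Cuffdiff test, and neither had an unadjusted p below 0.05.

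In Col0 the order of levels was PRX34, PRX71, PRX72, PRX57, PRX37, PRX64, PRX33, PRX62, PRX38 and PRX52. In cbe1 it was PRX71, PRX34, PRX57, PRX72, PRX64, PRX37, PRX33, PRX62, PRX52 and PRX38. With 1 value per genotype the spread behind neighbours in these orders is unknown, and PRX71 and PRX72 had almost the same level in Col0.

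The 10 genes share the coding site of the enzyme, while their number of coding exons differs. All 10 coding sequences are open reading frames of 954 to 1101 bases. Of these, 7 are in 4 coding exons, as are 49 of the 73 family genes, and PRX57, PRX62 and PRX71 are in 3. They hold 8 to 10 cysteine codons. The stretch around the codon of the catalytic histidine of the haem pocket shows the family likeness. In the lines that follow, the capitals are that histidine codon and the 3 codons after it (TAIR10.1, RefSeq, coding strand).
PRX33: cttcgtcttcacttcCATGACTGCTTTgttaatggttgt
PRX34: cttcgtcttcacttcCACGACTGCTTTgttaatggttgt
PRX37: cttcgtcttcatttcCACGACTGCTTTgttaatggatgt
PRX38: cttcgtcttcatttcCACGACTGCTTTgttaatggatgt
PRX52: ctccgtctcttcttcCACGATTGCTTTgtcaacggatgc
PRX57: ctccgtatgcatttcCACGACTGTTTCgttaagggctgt
PRX62: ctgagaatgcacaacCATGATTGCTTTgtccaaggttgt
PRX64: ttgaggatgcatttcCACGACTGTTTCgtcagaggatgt
PRX71: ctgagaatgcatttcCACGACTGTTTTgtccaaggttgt
PRX72: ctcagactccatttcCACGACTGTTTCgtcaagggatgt
PRX37 and PRX38 have the same 39 bases here, coding bases 175 to 213 of both. Over the 45 pairs of members, coding identity ran from 45.5% to 93.8% with a median of 52.4%. As to the label of secreted enzymes, the RefSeq annotation places 6 of the 10 products in the wall or the apoplast. It gives the endomembrane system for PRX62 and PRX72, and the vacuole for PRX37 and PRX38.

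**Figure D3:**
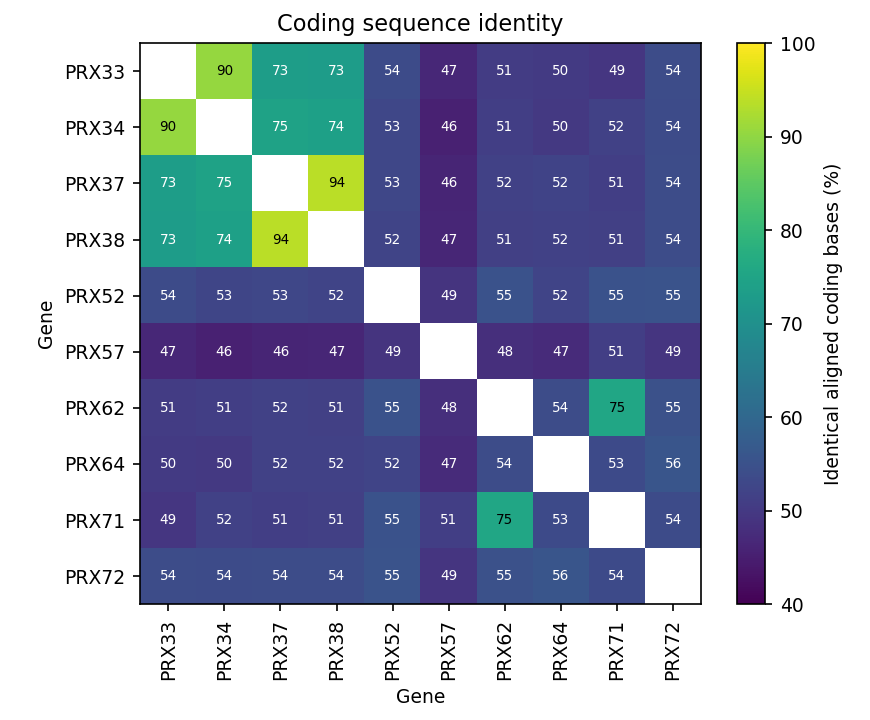
Share of identical aligned coding bases for each pair of the 10 genes, in percent, coloured from 40 to 100. The bright cells are the neighbours PRX37 and PRX38 (93.8%) and PRX33 and PRX34 (90.4%), followed by PRX62 and PRX71 (75.5%).

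Sequence before the annotated start of transcription was compared for PRX37 and PRX38, since both had lower values in cbe1. Capitals mark identical aligned runs of at least 15 bases in the 250 bases upstream (TAIR10.1; chr4:5600399-5600648, minus strand, and chr4:5603855-5604104, plus strand).
PRX37 upstream: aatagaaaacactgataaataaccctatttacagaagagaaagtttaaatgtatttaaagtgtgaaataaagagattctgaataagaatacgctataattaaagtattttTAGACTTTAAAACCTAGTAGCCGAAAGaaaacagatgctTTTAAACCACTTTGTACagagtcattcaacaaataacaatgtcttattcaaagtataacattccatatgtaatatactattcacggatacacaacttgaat
PRX38 upstream: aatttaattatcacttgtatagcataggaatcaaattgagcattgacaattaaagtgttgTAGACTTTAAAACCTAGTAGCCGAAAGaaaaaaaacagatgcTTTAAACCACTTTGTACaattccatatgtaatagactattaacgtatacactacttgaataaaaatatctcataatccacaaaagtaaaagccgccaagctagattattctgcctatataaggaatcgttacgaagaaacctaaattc
The global alignment of the whole windows gave 2 such runs with 44 bases in all. In it 52.6% of aligned bases were identical, against a median of 47.6% over all pairs of members. A further identical stretch of 15 bases, attccatatgtaata, stands in both windows at a different distance from the start. The bases that follow it, up to the end of the PRX37 window, also match except for isolated single differences. The alignment did not pair the 15-base stretch, so it is in lower case, and these figures can understate the likeness. The upstream stretches of PRX33 and PRX34 had 48.3%, with no identical run over 6 bases in their alignment.

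The W-box core, TTGAC on either strand, is bound by WRKY transcription factors, and was searched in the same 250 bases, with its matches in capitals. PRX71 and PRX62 are shown as closest relatives of which PRX71 was called and PRX62 was not (chr5:25661008-25661257 and chr5:15849142-15849391, both minus strand).
PRX71 upstream: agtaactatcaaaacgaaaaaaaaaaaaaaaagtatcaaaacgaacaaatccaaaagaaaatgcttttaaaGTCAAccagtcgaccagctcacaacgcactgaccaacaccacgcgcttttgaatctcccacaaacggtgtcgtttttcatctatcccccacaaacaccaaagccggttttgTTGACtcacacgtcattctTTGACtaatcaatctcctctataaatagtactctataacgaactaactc
PRX62 upstream: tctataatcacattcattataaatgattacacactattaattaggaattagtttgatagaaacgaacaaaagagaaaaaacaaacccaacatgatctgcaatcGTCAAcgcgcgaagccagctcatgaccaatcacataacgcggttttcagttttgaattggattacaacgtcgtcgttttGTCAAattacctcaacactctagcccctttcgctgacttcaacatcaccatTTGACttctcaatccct
At least 1 match stood upstream of 7 of the 10 members, 43.8% of the 73 family genes and 44.9% of 27443 protein-coding genes. PRX62, PRX71 and PRX72 had 3 matches each, as 3.38% of all promoters had 3 or more. A match describes the letters and shows no binding, and these 3 genes include 1 higher call, 1 lower call and 1 gene not called. The G-box CACGTG and the AC elements ACCTACC and ACCAACC of lignin genes had no match in the windows of the 10 members, on either strand; they occur in 6.49%, 1.16% and 2.69% of all promoters.

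Lower calls were also found in the rest of the family. Of 63 other class III peroxidase genes 49 were tested, and 8 of these fell and 0 rose, which is 16.3% lower calls against 1.63% of all tested genes. The count describes what was left after the members were chosen. By sign, 33 of the 49 log2 fold changes were below 0, with a median of −0.12 against 0.18 for all tested genes. At an unadjusted p below 0.05 there were 14 lower and 2 higher genes of the 49, where 4.2% and 12.5% of all tested genes were. With the recentred statistic 12 fell and 0 rose, against 2.99% and 1.33% of all tested genes. On the TPM scale, which adds 1.57 to every gene, the 8 called genes all had log2 fold changes above 0. Of the 363 lower calls among all genes, 75 stayed below 0 there. That constant rests largely on AT2G01021, with 72.2% of the summed FPKM in Col0 and 38.8% in cbe1. Directions with AT2G01021 left out of the sums were not computed.

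The largest called falls were those of PRX25, a peroxidase of stem lignin, from 2.82 to 1.09 FPKM (log2 −1.37), and of PRX39 (log2 −1.01). PRX22 fell from 154.3 to 85.6 FPKM, which is −0.85 in log2 (q = 2.15e-04 in the authors' deposited table). PRX11 had a log2 fold change of −0.85 (8.04 to 4.47 FPKM), and PRX3, also called RCI3 for its induction by cold, one of −0.85. PRX30 fell from 34.3 to 19.4 FPKM (log2 −0.82). PRX32, at 390.3 FPKM in the wild type against 243.2 in the mutant, fell by 0.68 on the log2 scale. PRX59, named after its value was seen, was the remaining call (17.4 to 9.86 FPKM). The most abundant family gene, PRX42, had 1177 and 944.6 FPKM and was not called (95% interval −0.82 to 0.19). PRX12 had 202.1 and 146.4 FPKM and was called only with the recentred statistic.

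Over all 73 genes the summed level was 2795 FPKM in Col0 and 2218 FPKM in cbe1, of which the 10 members held 200.8 and 229.6 FPKM. PRX37 was lower than any other tested family gene and PRX71 higher than any other, in log2 fold change. PRX37 and PRX71 lay at percentiles 1.81 and 96.7 of all tested genes by log2 fold change, which is the choice of the members and no test.

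**Figure D4:**
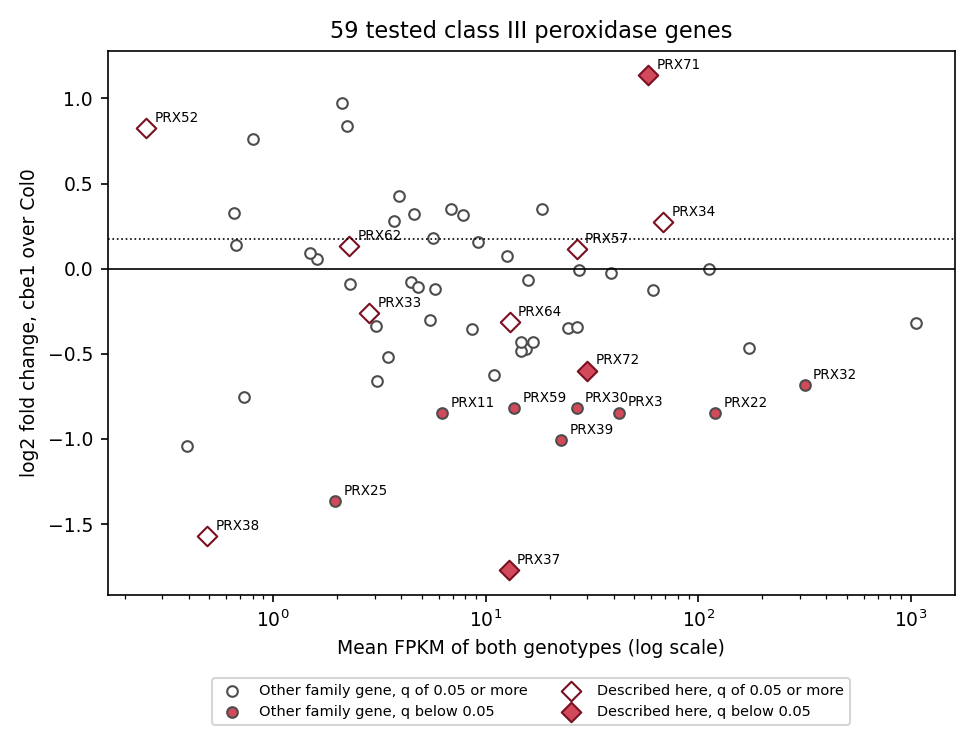
Log2 fold change of the 59 tested class III peroxidase genes against their mean FPKM on a log axis; diamonds are the 10 genes described, circles the other 49, and filled symbols have q below 0.05. The dotted line is the median tested gene. PRX71 is the sole filled symbol above 0, and the filled circles, 8 in number, all lie below 0.

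Laccases are the other secreted enzymes that oxidise monolignols. Of 17 genes 13 were tested, and 2 fell and 0 rose, which is 15.4% lower calls where 1.63% of all tested genes were called lower. LAC2 fell from 2.55 to 0.994 FPKM, a log2 change of −1.36 (q = 0.00147 per the authors' deposited table), and LAC3 from 12.4 to 6.24 FPKM (−0.99 in log2, q = 1.85e-04 there). Of the 13 values, 12 were below 0, with a median of −0.65, and 9 had an unadjusted p below 0.05, all lower, as had 4.2% of all tested genes. With the recentred statistic 4 fell, against 2.99% of all tested genes. On the TPM scale no gene called in the lists was lower, where 75 of the 363 lower calls among all genes stayed below 0. That scale rests largely on AT2G01021, as given above.

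Of the enzymes that make monolignols 15 were tested: 0 were called by the authors' Cuffdiff test, 4 had an unadjusted p below 0.05, all higher, where 12.5% of all tested genes were higher at that p, and the median was 0.18, that of all tested genes. CCoAOMT1 had 98.2 and 141.5 FPKM (q = 0.0772 in the authors' deposited table) and COMT1 had 118.6 and 117.2 FPKM. NADPH oxidases supply the superoxide from which hydrogen peroxide for the peroxidases is formed. Of 10 genes 8 were tested and Cuffdiff called 0, with a median of 0.36. There were 2 genes, RBOHC and RBOHF, with an unadjusted p below 0.05. Both were higher, where 12.5% of all tested genes were higher at that p. The lists share genes: RBOHF is also in the Casparian strip list and RBOHC in the root hair list. MYB36 is in both the Casparian strip list and that of regulators. RBOHD, of the stress burst, had 3.41 and 4.19 FPKM, and RBOHF, which acts at the Casparian strip, had 2.45 and 3.54 FPKM.

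Markers of tissues that express peroxidases were read beside these results, since fewer cells of a type and less RNA per cell cannot be told apart in seedling tissue. Of 8 xylem wall genes all were tested, and 1 fell, where 1.63% of all tested genes did: XCP1, a protease of dying xylem vessels, from 18.7 to 11.7 FPKM, a log2 change of −0.67 (q = 0.0356 in the authors' deposited table). Its relative XCP2 had 35.5 and 28.0 FPKM. The list had 4 values above 0 and 4 below, with a median of 0.078. VND7 and MYB46, regulators of xylem walls, had log2 fold changes of 1.11 (interval −0.57 to 2.79) and 0.87 (interval −0.14 to 1.88). Both were scarce, VND7 at 0.182 and 0.393 FPKM and MYB46 at 0.810 and 1.48 FPKM. The cellulose synthase genes CESA7, CESA8 and CESA4 had 0.37, 0.17 and −0.0098, on loci that also cover another gene. IRX9, also in the list, had 3.04 and 2.11 FPKM (log2 −0.52, interval −1.16 to 0.11). None of these genes was called. The summed level of the list, most of it XCP1 and XCP2, was 66.1 FPKM in the wild type against 52.5 in the mutant. Of 8 root hair genes 1 rose, the wall protein gene LRX1, from 3.05 to 5.63 FPKM (log2 0.88), where 3.31% of all tested genes rose. Recentring removed that call. PRP3 had 20.5 and 23.3 FPKM, and the list summed to 36.5 and 45.5 FPKM. The Casparian strip list summed to 52.6 and 68.9 FPKM.

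Of 7 whole-root genes 5 were tested and Cuffdiff called 0. With an unadjusted p below 0.05 there was 1 gene, higher, where 12.5% of all tested genes were higher at that p. That gene was SHR, a regulator of the endodermis, which had 2.58 and 3.89 FPKM, or 0.59 in log2 (q = 0.229 in the authors' deposited table). Of the 5 values 4 were above 0, with a median of 0.078. PYK10 went from 2440 to 1583 FPKM (log2 −0.62, 95% interval −1.27 to 0.026), on a locus that also covers another gene, and made up most of the list's summed level of 2452 and 1597 FPKM. SCR, which acts with SHR, had 6.99 and 7.37 FPKM. Cuffdiff called 0 of 6 green tissue genes. LHCB2.1, with 1654 and 2461 FPKM, was the 1 gene with an unadjusted p below 0.05, where 12.5% of all tested genes were higher at that p. RBCS3B had 5964 and 6890 FPKM and LHCA1 5615 and 5563 FPKM. The part of tissue make-up in the peroxidase values was not tested.

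Defence genes were included because PRX33 and PRX34 act in the response to microbes. Of 10 genes 7 were tested, 0 were called by the Cuffdiff test and 0 had an unadjusted p below 0.05, with a median of 0.15. EDS1 had 4.96 and 5.26 FPKM and WRKY33 3.64 and 4.52 FPKM. The marker genes PR1 and PR2 were too low for a test, at 0.181 and 0.193 FPKM in Col0.

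**Figure D5:**
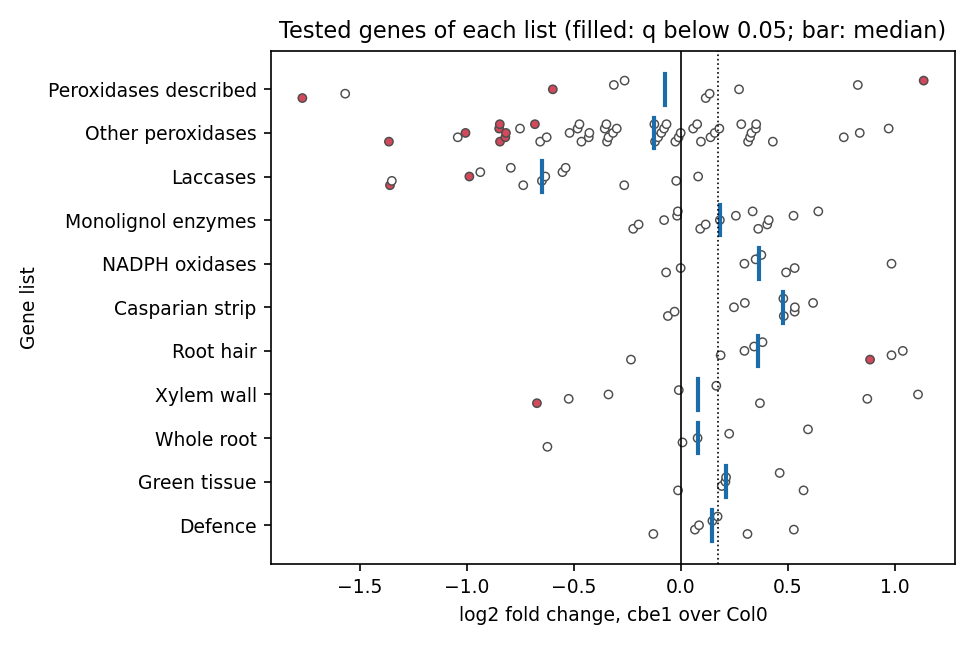
Log2 fold change of every tested gene in each list, 1 point per gene, filled where q was below 0.05, with a bar at the list median and a dotted line at the median tested gene. The laccase bar lies at −0.65 and that of the monolignol enzymes at 0.18.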

How the data were processed

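The data are 1 table of a comparison of cbe1 (3 libraries) with Col0 (3 libraries). The tools named in the submitters' processing notes are TopHat, a spliced read aligner, and Cuffdiff, which compares groups of libraries; the build named there is TAIR10. The deposited values are FPKM per gene and genotype, the authors' log2 fold change and test statistic (a score whose sign is opposite to that of the fold change), and the authors' p-value and q-value. The sources used here do not state how libraries were scaled or whether strand was used. Log2 fold changes were recomputed from the FPKM with no pseudocount and differed from the deposited ones by at most 1.24e-05 among tested genes. The standard error is the ratio of fold change to statistic. No test over libraries was possible.

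The recentred statistic subtracts the median log2 fold change and is adjusted again by Benjamini-Hochberg. That median was 0.17, over 18450 tested genes above 0 in both genotypes with a mean of at least 1 FPKM. The step was run on simulated data with a common shift and normal errors of the size that the statistic assumes. Such data cannot show whether those errors or a common shift hold here. The members and lists were chosen with earlier results of these data known. The text names all members, CBE1, up to 6 calls, the 4 most abundant and tandem neighbours within the rest of the family, and up to 4 calls per list, filled to 2 with the most abundant; other names were chosen after their values were seen. Family names PRX1 to PRX73 were assigned from general knowledge and all 73 are annotated as peroxidases by RefSeq. Coordinates of loci are TAIR10 from the table, counted from 1. Sequences are TAIR10.1 from RefSeq, whose gene models overlapped all 26687 loci compared. Of these loci, 7385 had the same start and 7315 the same end. Upstream windows and shared stretches follow the RefSeq models, which can differ from those the authors counted. Identity is from global alignment with biopython 1.88. Python 3.11.15, numpy 2.4.6, pandas 2.3.3 and scipy 1.17.1 were used.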

Additional observations from a re-analysis of the deposited data

How the results depend on the processing

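No paired analysis was possible because the table holds 1 value per genotype, and no library could be left out for the same reason. The log2 fold changes of the 10 members kept their sign under pseudocounts of 1 and 0.1, as did those of the 8 members left by the filter on a mean of at least 1 FPKM, but a pseudocount of 1 took PRX38 from −1.57 to −0.47 and PRX52 from 0.83 to 0.16. Recentring on the median gene turned PRX57 (−0.059), PRX62 (−0.040), EDS1 (−0.090) and SCR (−0.097), none of them called. TPM divides by each genotype's summed FPKM and adds 1.57 to every log2 fold change, a constant that rests largely on AT2G01021. It put PRX33 at 1.31, PRX64 at 1.26 and PRX72 at 0.97. For named genes other than the members, only the directions of deposited calls were counted after TPM. By direction after TPM, the deposited calls were 2 higher and 1 lower among members, 8 and 0 in the rest of the family, 4 and 0 in the lists, and 75 lower among all genes. At a q-value below 0.01, 1 member (PRX37) and 5 other peroxidases were lower, and 355 genes were higher and 207 lower. Where calls also had to reach 1 in log2, 1 member and 2 other peroxidases were lower, the lists had 0 higher and 1 lower, and all genes 240 and 146. The FPKM filter gave 2 higher calls in the lists. Recentred, the lists had 0 higher and 5 lower calls, and all genes 296 and 666. Depth is unknown, and members under 1 FPKM had standard errors of 0.68 and 0.85, against 0.18 to 0.39 for the others.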

Other observations

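PRX1, PRX2 and PRX3 lie in a row on chromosome 1 and had lower values in cbe1. PRX1 had 18.1 FPKM in the wild type against 13.0 in the mutant, and PRX2 had 17.0 and 12.2 FPKM; neither was called as deposited, and both were called with the recentred statistic. Every stretch of 50 bases in the PRX2 transcript also occurs in the annotated PRX1 transcript, while 59.4% of those in PRX1 occur in PRX2. PRX2 reads of up to 50 bases thus cannot be told from PRX1 reads by sequence. PRX22 and PRX23 are neighbours on chromosome 2, where PRX22 fell and PRX23 (27.3 and 21.4 FPKM, q = 0.350 in the authors' deposited table) was not called.

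Among the 14 family genes that the authors did not test, the level ran from 0.0256 to 0.236 FPKM in Col0. CAD5, an enzyme of the last step to monolignols, had 14.7 and 23.0 FPKM and a q-value of 0.0501 in the authors' deposited table, just above the threshold. These genes were named after their values were seen.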
